A study of Homo sapiens with 4 samples.

Results

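Wild-type (WT) H9 cells in the naive state, kept in 5iLAF medium, were compared with WT H9 cells in the primed state, kept in basal medium. H9 is an established human embryonic stem cell line, and 5iLAF combines kinase inhibitors with LIF, activin A and FGF2. The comparison rests on autosomal CpG cytosines, each identified by chromosome, position and strand, that had at least 10 reads in both libraries. There were 500581 of these among 2724721 autosomal cytosines listed in any of the 4 libraries of the study. The other 2 libraries came from H9 cells with a B3GALT5-/- knockout (KO), in the primed state in basal medium and in the naive state in 2iLAF medium. The KO libraries are given beside the WT values where they bear on a result, and KO naive differs from WT naive in genotype and in medium. Each group held 1 library of 1 cell line, so no difference between states had a replicate check, and no p-value below stands for a difference between conditions. The labels of state could not be checked by expression, since only methylation was measured.

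Primed human pluripotent cells resemble the post-implantation epiblast, and naive cells resemble the pre-implantation epiblast. DNA methylation in mammals sits mainly on the cytosine of CpG dinucleotides, is copied after replication by DNMT1 with UHRF1 and is placed anew by DNMT3A and DNMT3B. The pre-implantation embryo and naive cultures are known for low genome-wide methylation, and promoters of germline genes and imprinted regions are sites where methylation is known to hold a gene or an allele silent.

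The sequences below show where measured CpGs lie in 6 promoters that were chosen after their values were seen, as examples of large loss, gain and smaller loss. Each is the 250 bases before a transcript start, 5′ to 3′ on the strand of the gene. The letters are from RefSeq (GRCh38.p14). The positions are hg19, found by matching the spacing of the promoter's CpGs to the listed cytosines. Capitals mark CpGs with at least 10 reads in both WT libraries on at least 1 strand.
BRDT, chr1:92414678-92414927, plus strand: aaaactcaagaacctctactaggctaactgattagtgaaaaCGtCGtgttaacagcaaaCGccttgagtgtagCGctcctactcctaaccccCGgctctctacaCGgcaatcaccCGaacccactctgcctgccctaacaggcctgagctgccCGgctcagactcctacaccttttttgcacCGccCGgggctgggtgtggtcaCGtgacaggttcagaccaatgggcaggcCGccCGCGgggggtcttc
SLC6A19, chr5:1201460-1201709, plus strand: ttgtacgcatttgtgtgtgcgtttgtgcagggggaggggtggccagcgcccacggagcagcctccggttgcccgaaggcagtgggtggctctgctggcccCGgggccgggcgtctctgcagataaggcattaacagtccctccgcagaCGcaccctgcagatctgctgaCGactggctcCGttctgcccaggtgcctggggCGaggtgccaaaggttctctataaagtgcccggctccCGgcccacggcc
PCDHA11, chr5:140248292-140248541, plus strand: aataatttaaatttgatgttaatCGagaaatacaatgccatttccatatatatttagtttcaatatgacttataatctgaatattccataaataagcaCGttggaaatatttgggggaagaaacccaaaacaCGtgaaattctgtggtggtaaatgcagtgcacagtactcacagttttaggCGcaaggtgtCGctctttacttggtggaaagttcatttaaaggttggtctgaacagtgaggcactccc
ZNF578, chr19:52956556-52956805, plus strand: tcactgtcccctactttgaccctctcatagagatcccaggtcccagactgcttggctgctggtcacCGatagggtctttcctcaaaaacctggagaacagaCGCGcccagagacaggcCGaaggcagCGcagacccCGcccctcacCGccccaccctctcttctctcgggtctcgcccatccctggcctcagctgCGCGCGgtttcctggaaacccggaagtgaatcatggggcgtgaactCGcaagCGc
LHX6, chr9:124984020-124984269, minus strand: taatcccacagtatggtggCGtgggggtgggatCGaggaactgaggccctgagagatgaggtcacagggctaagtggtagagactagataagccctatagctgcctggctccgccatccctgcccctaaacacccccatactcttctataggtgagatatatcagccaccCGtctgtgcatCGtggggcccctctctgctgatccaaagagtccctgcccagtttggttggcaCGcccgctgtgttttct
DIRAS3, chr1:68516311-68516560, minus strand: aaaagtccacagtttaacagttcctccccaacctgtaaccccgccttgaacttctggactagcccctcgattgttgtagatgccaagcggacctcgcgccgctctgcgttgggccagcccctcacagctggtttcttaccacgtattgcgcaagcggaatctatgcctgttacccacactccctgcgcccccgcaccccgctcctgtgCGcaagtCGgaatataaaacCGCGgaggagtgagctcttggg
In the BRDT sequence all 14 CpGs were measured, and their mean level was 82.6% in primed and 16.9% in naive cells. The SLC6A19 sequence held 17 CpGs, of which 6 were measured, at 94.8% in primed and 12.7% in naive cells. In the PCDHA11 sequence all 5 CpGs were measured, at 100% and 15.3%. The measured CpGs of these 3 sequences were highly methylated in primed cells and held little methylation in naive cells. Of the 16 CpGs of the ZNF578 sequence 12 were measured, at 84.5% in primed and 18.3% in naive cells. The LHX6 sequence went the other way, with 5 of 7 CpGs measured at 19.5% and 57.1%. In the DIRAS3 sequence 4 of 17 CpGs were measured, at 100% in primed and 85.9% in naive cells. Over 11 cytosines around the DIRAS3 start the levels were 98.6 and 74.5%, a larger loss than in the sequence shown. The CpGs in lower case had fewer reads or were not listed, and nothing is stated about their level.

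Across all 500581 cytosines, methylation in naive cells was lower and was spread over intermediate levels. The median level was 86.4% in primed cells (quartiles 61.8 and 100%) and 54.5% in naive cells (quartiles 30.8 and 76.2%). Cytosines with every read methylated made up 26.1% of the set in primed cells and 4.41% in naive cells, with Wilson 95% intervals of 26.0 to 26.2% and 4.36 to 4.47%. The share between 20 and 80% was 31.6% in primed and 62.7% in naive cells. The naive library therefore held many partly methylated cytosines and few that were fully methylated. Its share at or below 20% was 15.6%, against 7.73% in primed cells. The difference, naive minus primed, had a mean of -21.96 points with an SD of 26.5 points over cytosines, and its quartiles were -39.7 and -3.57 points. It was below 0 at 79.0% of cytosines, above 0 at 18.1% and exactly 0 at 2.92%. All these intervals cover counting error only.

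**Figure D1:**
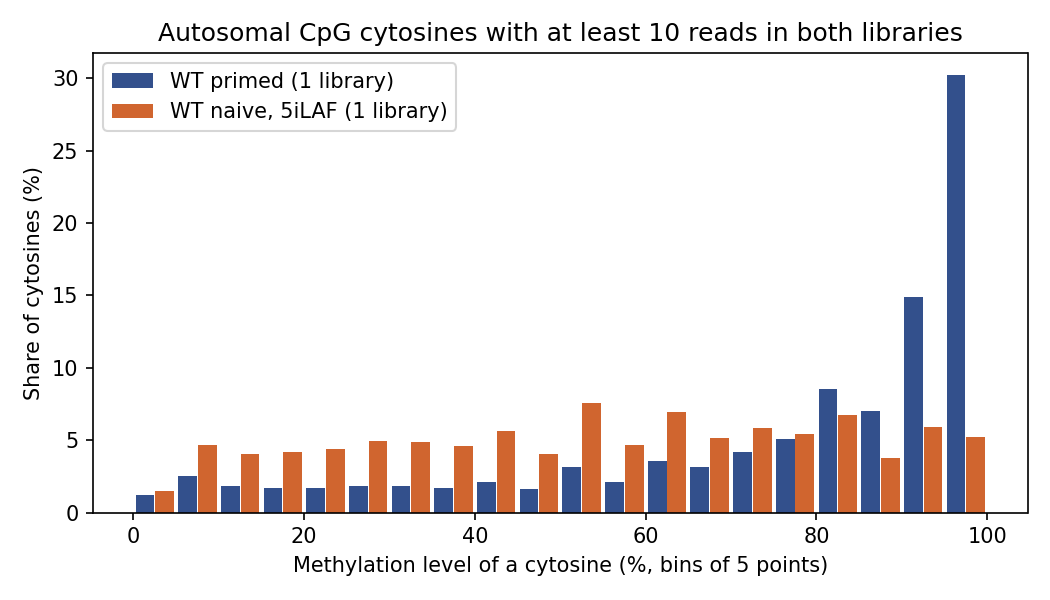
Share of the 500581 autosomal cytosines (vertical axis, %) in each bin of methylation level (horizontal axis, %, bins of 5 points) in WT primed and WT naive cells, 1 library each. The primed library piles up at the right end, with 45.1% of cytosines at 90% or above, while the naive library is spread broadly and has 11.1% there.

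The tables list a cytosine only when at least 1 read was methylated, so the loss of the last methylated read removes a cytosine from the comparison. Of 808124 cytosines with at least 10 reads in the primed library, 12.5% were unlisted in the naive library. For 20178 of them the neighbouring cytosines had at least 10 reads in naive cells, and the median primed level of these was 18.2%. Most of the vanished cytosines thus had little methylation in primed cells, but 2427 of them (12.03%) stood at 80% or above. In the opposite direction 24206 cytosines measured in naive cells were unlisted in primed cells beside well covered neighbours, and 115 of them (0.475%) stood at 80% or above. The mean difference was -20.5 points when unlisted cytosines beside covered neighbours were set to 0.

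The difference was larger where a cytosine was more methylated in primed cells. To keep the grouping apart from the values compared, cytosines were grouped by their level in the KO primed library. Cytosines at 0 to 10% there stood at 15.8% in WT primed and 18.3% in WT naive cells, a difference of 2.51 points. The difference was -1.47 points in the class at 10 to 20%, -8.15 points at 20 to 40% and -17.5 points at 40 to 60%. It was -25.7 points at 60 to 80%, -27.2 points at 80 to 90% and -25.5 points at 90 to 100%. In the 3 upper classes the naive level was between 65.8 and 71.8% of the primed level, so methylated cytosines kept about the same share of their methylation across them. The class at 90 to 100% held 188494 cytosines and went from 90.3 to 64.9%. Because cytosines without methylated reads are unlisted, those that fell to 0 are missing, which limits the loss that the lowest classes can show.

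Among cytosines at 80% or above in the KO primed library, the number of measured CpGs within 250 bp made little difference to the loss. The difference was -26.7 points with 0 to 4 such neighbours and -24.3 points with 30 or more. Over all cytosines, the same classes stood at -24.4 and -19.0 points. Deeply covered cytosines differed less between states: the difference was -22.6 points at 10 to 14 reads and -15.6 points at 100 reads or more, where the primed level was also lower, at 54.5% against 79.7%. On the minus strand, which held 82.7% of the cytosines, the difference was -22.4 points, and on the plus strand it was -19.7 points. The part of depth and strand in these values was not tested.

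Neighbouring cytosines moved together, and more so at short distances. Across pairs 2 to 10 bp apart, the Pearson correlation of the difference was 0.622, falling to 0.245 between 500 and 1000 bp and 0.0527 between 5000 and 20000 bp. These correlations are across pairs of cytosines within the same 2 libraries, where close neighbours often share reads, and are a description. The levels themselves were more alike between neighbours in primed cells, at 0.807 for 2 to 10 bp, than in naive cells, at 0.726. Within a 1 kb tile the median SD over cytosines was 13.4 points in primed and 17.0 points in naive cells, and the SD was larger in naive cells in 61.8% of tiles. Counting error alone would give median SDs of 7.66 and 10.1 points, which are also larger in naive cells. The tables do not show whether intermediate levels reflect single cells that differ or alleles that differ.

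Of 1632 windows of 1 Mb with at least 100 measured cytosines, 1631 were lower in naive cells. The median difference was -22.1 points, and the 5th and 95th percentiles were -29.9 and -14.5 points. The lowest window, chr5:140000001-141000000, went from 85.9 to 43.2% over 2915 cytosines and holds 21 placed starts of the clustered protocadherins, which encode cell adhesion proteins of neurons. In KO cells the same window went from 85.9 to 50.2%. At the other end, chr12:54000001-55000000 with the placed starts of HOXC4 and HOXC5 went from 36.2 to 37.8% over 594 cytosines, the one window above 0. In KO cells that window fell, from 40.1 to 34.7% over 451 cytosines. The window chr7:27000001-28000000, with placed starts of HOXA3, HOXA7, HOXA9 and HOXA10, went from 38.1 to 35.6%. In KO cells it went from 42.1 to 34.1% over 304 cytosines. HOX genes encode homeobox factors that pattern the body axis. Both HOX windows were among the less methylated ones in primed cells.

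Each of the 500581 cytosines was tested by a two-sided Fisher's exact test on its methylated and unmethylated reads, adjusted by Benjamini-Hochberg over the set. With a shift of 25 points or more also required, 125480 were called lower in naive cells (25.1%) and 4587 higher (0.916%) at the 0.05 level. Such a test sets one library against another and treats reads as independent. Within a library, the strands of CpGs at 20 to 80% with at least 10 reads on each strand differed by 4.38 times the binomial variance in primed cells (32585 CpGs) and by 3.45 times in naive cells (52261 CpGs). With reads scaled down by these ratios, 974 lower and 0 higher calls were left by Fisher's exact test, with 22844 and 493 at an unadjusted p under 0.05. Single cytosines are therefore not named as changed below, and windows are described by a rule of size.

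By that rule a 1 kb tile was lower or higher when it held at least 5 cytosines, differed by at least 25 points on average and had at least 80% of its cytosines moving that way. Of 26482 tiles, 9652 were lower in naive cells (36.4%) and 208 were higher (0.785%). Lower tiles went from a median of 87.6% to 45.8%, and higher tiles from 16.1% to 51.7%. Of 8105 tiles at 90% or above in primed cells, 90 (1.11%) stood at 20% or below in naive cells, whereas 22.9% kept 80% or above. Cytosines that lost every methylated read are unlisted, so these tiles cannot show how often loss was complete. The naive median of these 8105 tiles was 69.7%, with quartiles of 56.6 and 79.2%.

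**Figure D2:**
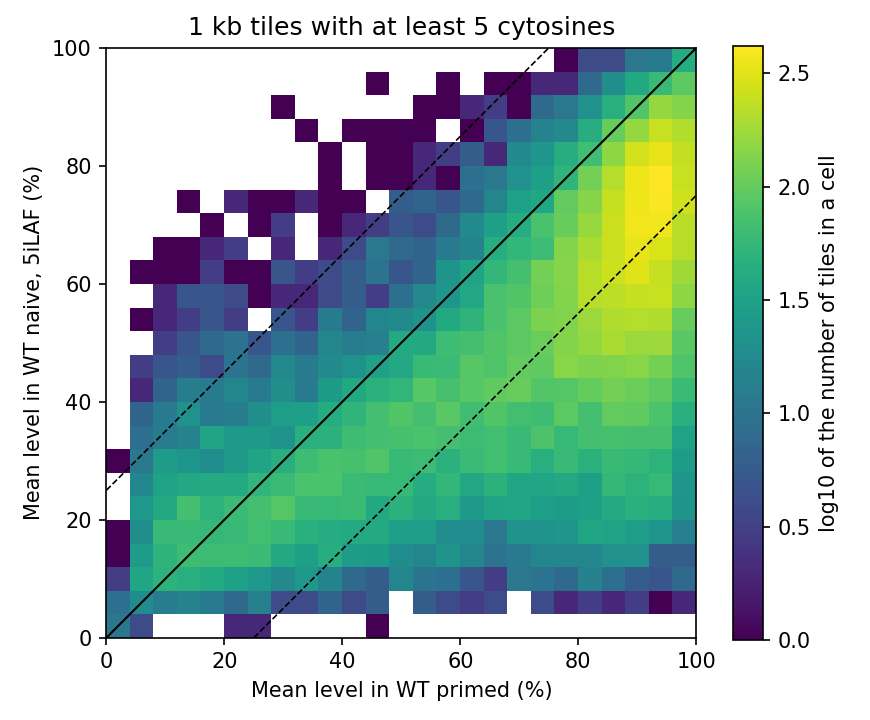
Mean level of 26482 tiles of 1 kb in WT primed (horizontal axis, %) and WT naive cells (vertical axis, %), coloured by the log10 of the number of tiles in each cell of the grid. Most tiles lie below the diagonal at the right, with a primed median of 83.1% and a naive median of 54.3%. Few lie in the lower right corner, where tiles of full loss cannot appear because cytosines without methylated reads are unlisted.

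The libraries of KO cells were not used to choose these tiles. Most losses were seen in them too, and the gains were smaller there. Of the 9652 lower tiles, 7309 had at least 5 cytosines measured in the KO libraries too, and 7235 of them (99.0%) were also lower in KO naive than in KO primed cells. Of the tiles that passed in neither direction, 92.9% were lower in KO naive cells. The median difference of the 7309 lower tiles was -36.4 points in WT cells, against -29.5 points in KO cells. Of these 7309 tiles, 4571 passed 25 points in KO cells. Of 88 higher tiles with KO values, 61 (69.3%) were also higher in KO cells and 12 passed 25 points. The median difference of the gains was 32.4 points in WT cells and 6.51 points in the KO. For comparison, 35.6% of 44341 tiles measured in KO cells passed as lower in KO naive cells and 0.255% as higher. The WT tiles were ranked on WT values, which makes their own differences extremes.

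The largest loss in a tile of 10 or more cytosines lay at chr4:640001-641000, from 97.4% ± 5.58 to 9.86% ± 5.89 over 20 cytosines. Here and below the value after ± is the SD over cytosines, which describes their spread and is no replicate error. The nearest placed start, of the phosphodiesterase gene PDE6B, was 4741 bp away. KO cells went from 92.2 to 18.1% there. A pair of adjacent tiles at chr17:4802001-4804000 went from 96.8 to 10.2% and from 93.6 to 12.6%. Of the other large losses, chr3:181413001-181414000 went from 93.6% ± 6.69 to 10.98% ± 8.40 over 32 cytosines. The tile at chr5:1201001-1202000 contains the start of SLC6A19 and is described with the promoters. All cytosines of the 10 largest losses were lower in naive cells, and their mean naive levels were between 9.86 and 18.2%.

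Lower tiles often adjoined. There were 552 runs of at least 2 lower tiles in a row, 73 of at least 3 and 2 of 5. The run at chr13:45950001-45955000 went from 90.6 to 20.7% over 56 cytosines in WT cells and from 85.2 to 20.6% in KO cells, so that the domain reached the same level in both genotypes. The run at chr7:6910001-6915000 went from 87.9 to 53.7% over 92 cytosines in WT cells and from 91.3 to 65.7% in KO cells. Higher tiles formed 3 runs of at least 2, of which the one from chr9:135457001 holds the start of the homeobox gene BARHL1.

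Gains among tiles with at least 10 cytosines were led by chr22:19751001-19752000, from 10.5% ± 5.79 to 65.8% ± 22.02 over 11 cytosines. KO cells went from 8.86 to 67.3% over the 8 cytosines measured in them. The placed start of TBX1, a T-box factor of heart and pharyngeal development, was 6775 bp away. The tile at chr5:172659001-172660000 went from 13.01 to 67.8%, but in KO cells from 11.4 to 32.1% over 3 cytosines. At chr19:48565001-48566000 WT cells went from 16.4 to 67.6% while KO cells stood at 59.2% in primed and 62.5% in naive cells, so this tile was already methylated in KO primed cells. The tile at chr3:147116001-147117000, 6307 bp from the placed start of the zinc-finger gene ZIC4, went from 6.51 to 47.1%. A tile 2000 bp from the placed start of MNX1-AS2, at chr7:156801001-156802000, went from 12.6 to 51.1%, and did not pass with 10 reads drawn (30 points). The SD over cytosines within the 10 largest gains was 13.9 to 26.6 points in naive cells, against 5.34 to 11.3 points in the 10 largest losses. The naive means were 47.1 to 73.0% in these gains and 9.86 to 18.2% in the losses. Levels near 0 leave less room for spread, so the SDs are not a like comparison.

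Of the tiles at 90% or above in primed cells with at least 10 cytosines, the 5 with the least loss stayed between 93.3 and 97.6% in naive cells. The tile at chr14:32741001-32742000 stood at 91.0% ± 9.01 in primed and 96.4% ± 6.20 in naive cells. At chr3:36940001-36941000 the WT levels were 93.7 and 97.6%, while KO cells went from 95.8 to 76.8%. The tile at chr5:178808001-178809000 stood at 90.8 and 93.3% in WT cells and went from 98.7 to 72.2% in KO cells, but its WT difference was -20.01 points over 22 cytosines with at least 5 reads and -6.49 points with merged strands. The sign also turned with at least 5 reads at the tiles from chr2:242663001 (-3.97 points) and chr5:84001 (-2.35 points). Both of these differences stayed small, so only at chr5:178808001 did retention itself depend on the read minimum. At chr3:36940001-36941000 the WT difference was 3.84 points with at least 5 reads.

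Promoters were examined in windows from 1000 bp before to 500 bp after a placed transcript start. Starts of 3201 genes were placed, and 1424 genes had at least 5 measured cytosines in the window. Because cytosines without methylated reads are unlisted, unmethylated CpG islands are largely missing from these windows, and the 1424 genes lean towards promoters that hold methylation. Their median level was 76.6% in primed and 43.6% in naive cells, and the median difference was -20.4 points. By the rule applied to tiles, 562 windows were lower in naive cells (39.5%) and 26 were higher (1.83%). Lower windows went from a median of 87.9 to 43.4%, and higher windows from 17.8 to 50.3%. The promoter sequences of lower windows held a median of 13 CpGs in 300 bases, those of higher windows 17 and the others 15.

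The profile around placed starts was similar in both states. Placing a start needed at least 6 listed CpGs from 250 bp before to 50 bp after it. Starts whose CpGs had no methylated reads could therefore not be placed, and a dip in level at the start could hardly show. In bins of 250 bp the primed level was lowest at 57.9%, 750 to 999 bp after the start, and highest at 79.3%, in the bin that begins 4750 bp before it. The naive level lay between 40.2 and 54.2% over all bins within 5000 bp of the start. In the 250 bp before the start, where coverage of placed genes was densest with 7847 cytosines, the levels were 66.1 and 44.3%.

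**Figure D3:**
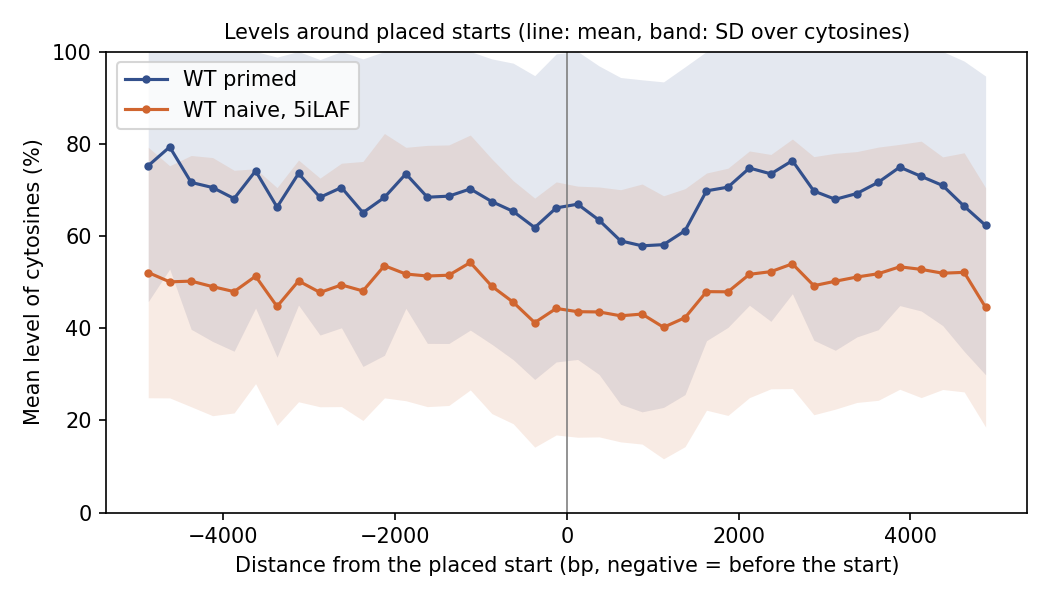
Mean level of cytosines (vertical axis, %) in 250 bp bins of distance from the placed start (horizontal axis, bp, negative before the start) in WT primed and WT naive cells, 1 library each. The naive line runs below the primed line in all bins shown. The primed line is lowest 750 to 999 bp after the start and the naive line 1000 to 1249 bp after it. Starts were placed by listed CpGs next to them, so unmethylated starts are missing and a dip at the start could hardly show.

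The largest promoter loss was at SLC6A19, which encodes a transporter of neutral amino acids in kidney and intestine. Its window, chr5:1200710-1202210, went from 97.2% ± 5.16 to 17.2% ± 9.03 over 11 cytosines. Each of the 11 stood between 86.7 and 100% in primed and between 6.25 and 28.6% in naive cells. KO cells went from 95.5 to 41.7% over 7 of these cytosines. PRDM9 encodes the meiotic histone methyltransferase that sets recombination hotspots, and its window, chr5:23506718-23508218, went from 96.9% ± 5.09 to 19.7% ± 18.7 over 13 cytosines. H2BC14, a histone H2B gene, went from 93.3% ± 15.4 to 17.7% ± 10.6 over 26 cytosines.

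Among the other members of the 15 largest losses, the window of GSPT1, a translation termination factor, went from 88.8% ± 6.49 to 13.4% ± 9.42 over 8 cytosines, and in KO cells from 86.0 to 14.5%. The window of ANAPC11, a subunit of the anaphase-promoting complex, went from 87.4 to 11.4% over 6 cytosines. NT5C3A, a pyrimidine nucleotidase, went from 89.6 to 12.8%, also over 6. DNAJC15, a mitochondrial co-chaperone, went from 90.6 to 17.1% over 9 cytosines, and SERPINB6, a protease inhibitor, from 92.5 to 19.6% over 5. A gene can have several starts, and the window with the most measured cytosines was used, which favours methylated starts. The remaining members of the 15 largest losses were LOC105378283, LINC01960, LINC02901, LINC00112, PCDHA11 and the pair SPMAP1 and LOC124903994, whose windows share the same 13 cytosines and went from 89.1 to 15.5%. Naive levels of all 15 lay between 11.4 and 20.8%. Of the 562 lower windows 471 had KO values, and 469 of these (99.6%) were lower in KO naive cells too. Windows that passed in neither direction were also lower in KO naive cells in 565 of 620 cases (91.1%).

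Promoter gains were smaller, and in some windows a part of the cytosines moved the other way. RGS12 encodes a regulator of G-protein signalling, and its window, chr4:3370925-3372425, went from 23.3% ± 19.3 to 65.2% ± 15.7 over 11 cytosines. In KO cells it went from 18.3 to 51.1%. Within the RGS12 window 9 of the 11 cytosines were higher in naive cells, while the one 451 bp before the start stood at 66.7 and 57.7% and the one 351 bp after it at 50 and 33.3%. LHX6, a LIM homeobox factor of interneurons, went from 19.5% ± 11.03 to 57.1% ± 32.5 over 5 cytosines in WT and from 9.77 to 50.5% over 4 in KO cells. LRRC20 went from 18.6 to 55.3% over 9 cytosines, with KO values of 20.6 and 30.9%. OSTM1-AS1 had the largest gain, from 12.0 to 54.0%, over 5 cytosines. HAND2-AS1, the antisense partner of the heart factor HAND2, went from 8.24 to 42.1% over 7. The window of the homeobox gene DBX1, from 12.5 to 42.7% over 7 cytosines, also passed the rule. The run of 2 higher tiles with the start of the homeobox gene BARHL1 went from 25.1 to 55.4% over 24 cytosines. In KO cells that run went from 35.9 to 40.2% over 19 cytosines. Of the 26 higher windows 14 had KO values, and 10 of these were higher in KO naive cells.

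Genes of the naive state with at least 5 measured cytosines were few. Of 25 genes on the list, 6 were placed and 3 measured, and 2 of these 3 were lower in naive cells and 0 higher, beside 39.5% lower and 1.83% higher over all windows, with a median difference of -48.1 points. DPPA5, a marker of naive and early embryonic cells, went from 96.5% ± 3.84 to 40.8% ± 8.77 over 11 cytosines. Its cytosines stood at 90.9 to 100% in primed and at 30 to 56.2% in naive cells. KLF17, a Krüppel-like factor of naive cells, went from 95% ± 12.2 to 46.9% ± 8.40 over 6 cytosines. OOEP, an oocyte-expressed gene close to DPPA5 on chromosome 6, stood at 95% and 72.3% over 5 cytosines, a difference short of 25 points. None of these 3 promoters reached the levels of the largest losses. KO naive cells stood at 49.4% at DPPA5 over 9 cytosines.

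Germline genes behaved unevenly. Of 35 genes listed, 23 were placed and 10 measured, of which 5 were lower in naive cells and 0 higher. This count of 5 in 10 is close to the 39.5% lower over all windows, of which 1.83% were higher. Their median difference was -28.1 points, against -20.4 points over all 1424 windows. BRDT, a bromodomain protein of the testis, went from 86.5% ± 12.6 to 28.6% ± 17.7 over 29 cytosines, all of them lower. TDRD1, a tudor protein of the piRNA pathway, went from 82.4% ± 14.1 to 27.6% ± 20.2 over 16 cytosines, all of them lower. MAEL, also of the piRNA pathway, went from 93.9 to 54.3%, STK31 from 95.3 to 58.8% and SYCP3, of the synaptonemal complex, from 86.1 to 54.7%. The loss at MAEL and STK31 was thus partial, with SDs of 29.4 and 25.2 points over their cytosines in naive cells. The calls of these 3 genes were not all stable: MAEL no longer passed with at least 5 reads (-38.1 points) or with 10 reads drawn (-38.3 points), STK31 over the cytosines of all 4 libraries (-26.1 points) and SYCP3 with 10 reads drawn (-31.5 points).

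The other 5 germline windows did not pass the rule. DAZL, a germ-cell RNA-binding protein, stood at 94.5% ± 9.66 in primed and 76.0% ± 16.0 in naive cells over 24 cytosines, and at 94.9 and 72.5% in KO cells. Its single cytosines in naive cells ran from 33.3 to 100%. SLC25A31, the testis form of the mitochondrial ADP/ATP carrier, stood at 96.2% ± 6.02 and 97.5% ± 4.06 over 10 cytosines. These 10 cytosines were nearly fully methylated in both WT libraries, but with at least 5 reads the difference was -6.66 points over 28 cytosines. TDRD9, a helicase of the piRNA pathway, stood at 100 and 78.6% over 7 cytosines. SYCP1 stood at 52.2 and 27.5% over 28 cytosines, just short of 25 points (it passed with 10 reads drawn, at -30.4 points), and SYCE1 at 42.0 and 48.6% over 10. KO primed cells stood at 93.2% at SYCP1 and at 24.8% at SYCE1, so these 2 promoters differed between the primed libraries.

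**Figure D4:**
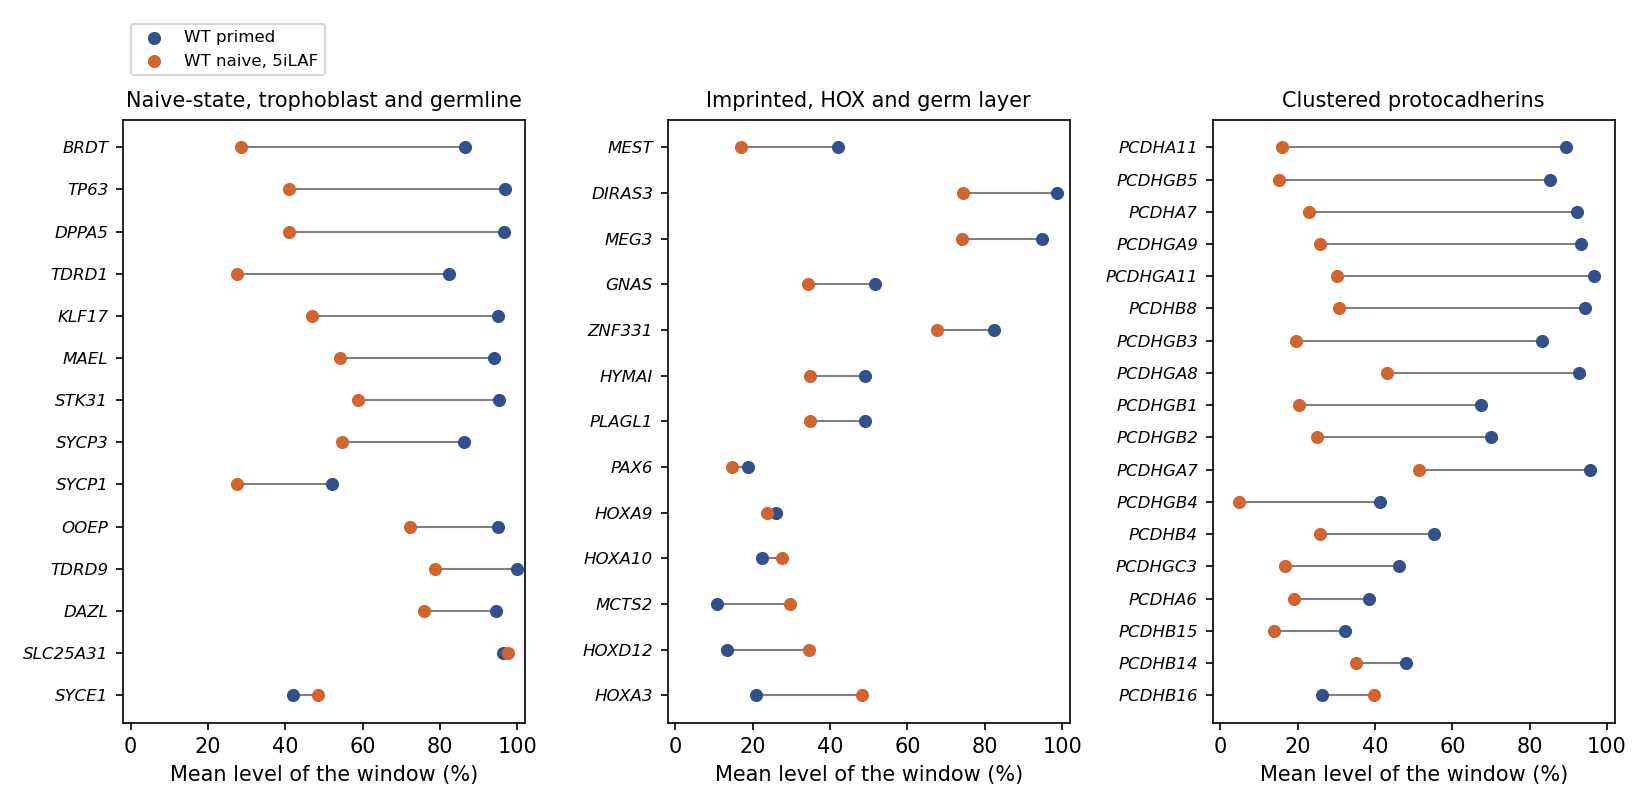
Mean level of the promoter window (horizontal axis, %) in WT primed and WT naive cells, 1 library each, for the genes with at least 5 measured cytosines on the lists shown. The protocadherin windows have naive levels between 4.87 and 51.4%, while imprinted windows have naive levels between 16.9 and 74.5%.

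Imprinted genes carry methylation on the copy from 1 parent, and a level in the middle of the range is typical of a germline imprint. Of 36 genes listed, 15 were placed and 8 measured, and 0 of 8 were lower or higher by the rule of size, beside 39.5% lower and 1.83% higher over all windows. The median primed level of the 8 was 50.3%, against 76.6% over all windows. A loss of 25 points is harder to reach from a lower level, so the 2 shares are not a like comparison. PLAGL1 and HYMAI, which share 1 start region and the same 19 cytosines, stood at 49.1% ± 22.9 in primed and 34.9% ± 11.7 in naive cells. KO cells stood at 48.2 and 46.9% over 12 of these. GNAS stood at 51.5% ± 20.4 and 34.3% ± 18.3 over 25 cytosines at the placed start, at position 57414803 of chromosome 20. A gene can have several starts, and this one need not be that of the transcript for the stimulatory G-protein alpha subunit. MEST went from 42.0% ± 24.5 to 16.9% ± 12.5 over 14 cytosines, a difference of more than 25 points, but 71.4% of its cytosines moved that way, short of 80%. With at least 5 reads MEST passed the rule, at -28.5 points over 28 cytosines. KO cells stood at 44.6 and 19.7% at MEST.

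DIRAS3, an imprinted small GTPase gene, stood at 98.6% ± 3.11 in primed and 74.5% ± 20.2 in naive cells over 11 cytosines, far from the middle in primed cells. MEG3, a noncoding RNA, stood at 94.7 and 74.1% over 9 cytosines, and ZNF331 at 82.5 and 67.6% over 31. These 3 imprinted windows were above the middle of the range in primed cells of both genotypes, with 97.4, 89.5 and 93.7% in KO primed cells. MCTS2 stood at 10.6% ± 4.06 in primed and 29.6% ± 9.59 in naive cells over 21 cytosines. At MCTS2 the KO libraries stood at 74.97 and 33.8% over 18 cytosines, so the naive libraries were close to each other and the primed libraries were far apart. The median difference of the 8 imprinted windows was -16.1 points, against -20.4 points over all windows, which started from a higher median primed level.

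The clustered protocadherins on chromosome 5 lay in the 1 Mb window with the largest loss. Of 47 genes, 21 were placed and 18 measured, of which 13 were lower, 0 higher and 5 neither, against 39.5% lower and 1.83% higher over all windows. Their median difference was -45.9 points. In the alpha cluster PCDHA11 went from 89.5% ± 11.4 to 15.9% ± 8.02 over 31 cytosines and PCDHA7 from 92.3% ± 13.5 to 22.8% ± 11.3 over 34. Single cytosines of PCDHA11 stood at 61.5 to 100% in primed and at 2.08 to 32.7% in naive cells. PCDHA6 was already at 38.4% in primed cells and stood at 19.2% in naive cells, but passed as lower in a window of 250 bp before to 50 bp after the start, at -44.3 points.

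The gamma cluster had losses at 9 of its 10 measured genes. PCDHGB5 went from 85.4% ± 10.5 to 15.1% ± 13.7 over 16 cytosines, PCDHGA11 from 96.6 to 30.2% over 24 and PCDHGA9 from 93.2 to 25.8% over 6. PCDHGA7 and PCDHGA8 kept 51.4 and 43.2% in naive cells, the highest levels of the family. PCDHGB4 started at 41.4% and stood at 4.87% ± 1.44 in naive cells, the lowest. At PCDHGB1 the difference was -46.9 points with 71.4% of 7 cytosines moving that way, so it did not pass, except with unlisted cytosines set to 0 (-44.5 points). PCDHGC3, the isoform of the constant type, went from 46.1 to 16.7% over 32 cytosines, and did not pass in the shorter window (-21.96 points). The beta cluster was mixed. PCDHB8 went from 94.4 to 30.6% and PCDHB4 from 55.3 to 25.7% (not passing in the shorter window, at -22.6 points), while PCDHB14 and PCDHB15 stood at 48.1 and 32.1% in primed and 35.1 and 13.8% in naive cells. PCDHB16 stood at 26.3% in primed and 39.7% in naive cells over 8 cytosines. These genes are near-identical copies in part, so reads and placements can be shared among them.

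Zinc-finger genes of chromosome 19 encode mostly KRAB repressors, many of which bind transposable elements. Of 217 genes, 52 were placed and 31 measured, and 13 were lower, 0 higher and 18 neither, close to the 39.5% lower and 1.83% higher over all windows. Their median difference was -22.9 points, near the -20.4 points of all windows. ZNF578 went from 87.3% ± 18.9 to 22.5% ± 11.9 over 20 cytosines. ZNF568 and ZNF829 share a start region and 7 cytosines, and went from 71.9% ± 33.6 to 8.55% ± 8.97. ZNF534 went from 92.4 to 32.0% over 6 cytosines and ZNF560 from 95.2 to 41.3% over 20. ZNF492 went from 81.0 to 54.0% over 49 cytosines and ZNF208 stood at 89.4 and 66.5% over 31. ZNF492 no longer passed with 10 reads drawn (-27.6 points), and ZNF208 passed with at least 5 reads (-29.1 points). Within this family the naive level of methylated promoters ranged widely. ZNF585A, at 6.49 and 6.52%, and ZNF844, at 30.03 and 31.8%, were close in both states, but ZNF844 differed by -8.80 points with at least 5 reads.

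Of 20 HOX genes, 9 were placed and 4 measured, and 0 were lower, 1 higher and 3 neither, beside 39.5% lower and 1.83% higher over all windows. Their median difference was 13.2 points. HOXA3 went from 20.8% ± 11.5 to 48.2% ± 20.6 over 11 cytosines, of which 1 was lower in naive cells. KO cells stood at 16.1 and 30.8% there. HOXA10 stood at 22.3 and 27.5% over 16 cytosines, HOXA9 at 26.0 and 23.6% over 32 and HOXD12 at 13.4 and 34.6% over 5. The sign of the difference turned at HOXA10 with 10 reads drawn (-0.625 points) and at HOXA9 with unlisted cytosines set to 0 (3.26 points). HOXD12 passed as higher when unlisted cytosines were set to 0, at 36.1 points over 13. In primed cells the levels of these 4 lay between 13.4 and 26.0%, against a median of 76.6% over all windows. From such levels the loss of 25 points that the rule requires was out of reach, or nearly so. The count of 0 lower HOX windows is therefore not a like comparison with the 39.5%. Of the developmental lists, TP63, a factor of epithelial and trophoblast progenitors, went from 96.8% ± 8.40 to 41.0% ± 21.8 over 7 cytosines, and in KO cells from 86.6 to 73.2% over 6. PAX6, an eye and neural factor, stood at 18.8 and 14.6% over 5, a difference that turned to 2 points with 10 reads drawn. The lists of primed state genes, shared pluripotency genes, methylation enzymes and housekeeping genes had 0 windows with at least 5 measured cytosines, so nothing is stated about them.

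**Figure D5:**
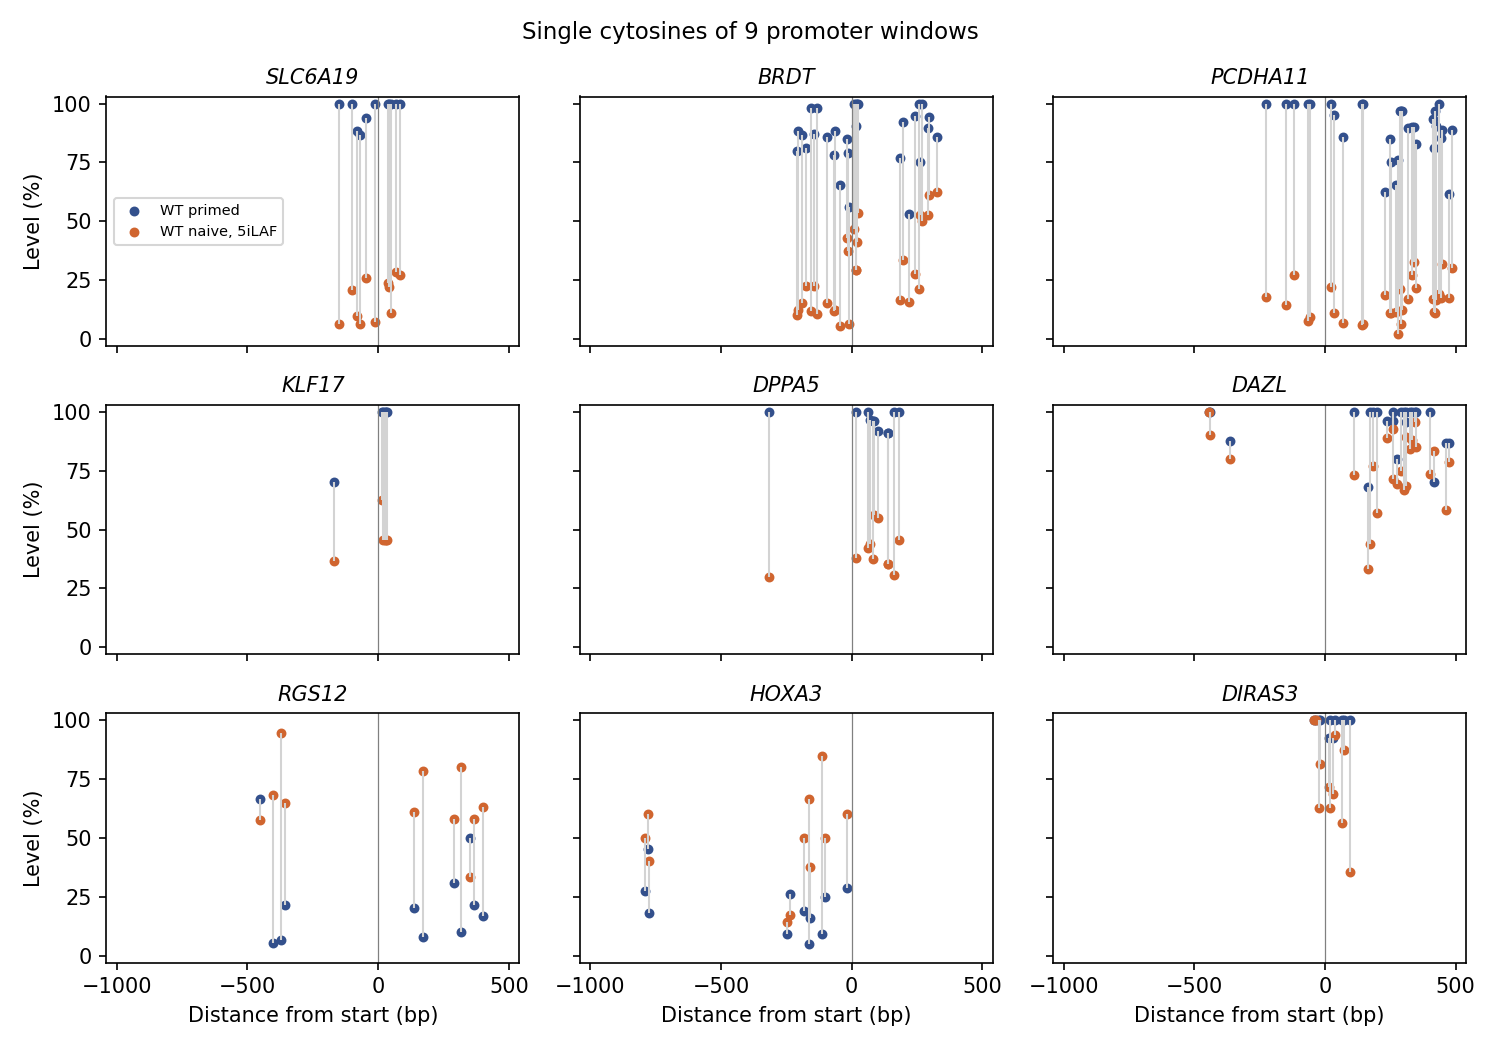
Level of single cytosines (vertical axis, %) by distance from the placed start (horizontal axis, bp) in 9 promoter windows, in WT primed and WT naive cells, 1 library each, with grey lines joining the same cytosine. All cytosines of SLC6A19, PCDHA11 and DPPA5 are lower in naive cells. DAZL in naive cells runs from 33.3 to 100%, and at RGS12 and HOXA3 most cytosines are higher in naive cells.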

How the data were processed

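Bisulfite libraries were made with a capture kit from genomic DNA of 4 H9 samples, and conversion was 99% in all of them, per the labels' protocols. The genome build named in the submitters' processing notes is hg19, which is GRCh37. For aligner, methylation caller and duplicate handling, the names were not given in the sources used here. Each library's table, as deposited by the authors, gives raw read counts (total, context and methylated coverage) and a methylation level as a fraction, per the file headers. The tables held 0 rows with 0 methylated reads. Autosomal summed reads were 23454725 in WT primed and 23028501 in WT naive, with a median of 7 and 8 reads per listed cytosine and 17 in both over the compared set.

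Levels were methylated over context coverage, weighted equally per cytosine. Cytosines on the strands of one CpG were kept apart. Fisher's exact tests, the rule of size and the strand scaling are described with their results. The difference of means was given no test. RefSeq promoter sequences (GRCh38.p14, 300 bases) were placed on the files' coordinates by CpG spacing, with at least 6 matched CpGs, at most 10% of listed CpGs off the pattern and a lead of 2 over the next position. Of 33724 autosomal sequences 22316 had enough CpGs and 3543 were placed, after 29 of 3572 (0.812%) were dropped for lying out of gene order. No coordinate of the other build was used. KO values are over the cytosines with at least 10 reads in the KO libraries too.

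Named were the 10 tiles with the largest loss and gain and 5 retained tiles (at least 10 cytosines), the longest runs, the 15 largest promoter losses, up to 10 gains and all measured list members. The text gives a selection. BARHL1, DBX1 and the sequences printed were chosen after their values were seen. Members and lists were chosen with earlier results of these data known. The code was tested on simulated data. Python 3.11.15, numpy 2.4.6, pandas 2.3.3, scipy 1.17.1, numba 0.67.0 and matplotlib 3.10.9 were used. Alternatives were other read minimums, a limit of 100 reads, cytosines shared by 4 libraries, 10 reads drawn, merged strands, unlisted cytosines set to 0, read weighting, a 50-point difference, scaled reads, 10 cytosines per tile and a shorter promoter window.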

Additional observations from a re-analysis of the deposited data

Results flagged for a closer look

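Of the named tiles and the named or listed promoter windows, 8 moved in opposite directions in WT and KO cells between the states. Only those with at least 5 cytosines measured in all 4 libraries were compared, so this is no count over all tiles and windows. With 1 library per group the difference between the genotypes was not tested, and naive KO differs in genotype and medium. Values are over cytosines measured in all 4 libraries. Retained tiles made up 3 of them. The tile at chr2:242663001-242664000 differed by 3.63 points in WT cells and -7.23 points in the KO, that at chr3:36940001-36941000 by 3.89 and -18.9 points, and that at chr5:178808001-178809000 by 2.42 and -26.6 points. Among promoters, SLC25A31 differed by 1.45 points in WT cells and -19.3 points in the KO, and SYCE1 by 6.91 and -6.21 points. PCDHB16 differed by 14.6 and -17.5 points over 5 cytosines. MCTS2 differed by 19.6 points in WT cells, from 10.7 to 30.4%, and by -41.2 points in KO cells, from 74.97 to 33.8%. ZNF69 differed by -23.2 points in WT cells, from 48.7 to 25.5%, and by 18.3 points in KO cells, from 20.1 to 38.5%. With at least 5 reads in both WT libraries, the WT difference turned at the tiles from chr2:242663001 (-3.97 points) and chr5:178808001 (-20.01 points) and at SLC25A31 (-6.66 points), and at PCDHB16 it was 2.77 points, so at the first 3 the opposite direction rests on the minimum of 10 reads. With merged strands the tiles on chromosomes 2 and 5 stood at -0.932 and -6.49 points. At MCTS2 and ZNF69 the WT differences were 18.97 and -21.4 points with at least 5 reads, and the primed libraries already stood far apart.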

How the results depend on the processing

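The mean difference kept its sign under the alternatives run. It was -21.8 points with at least 5 reads, -19.7 with 20 reads, -22.1 without cytosines over 100 reads, -22.6 over cytosines of all 4 libraries, -21.8 with merged strands, -20.5 with unlisted cytosines set to 0 and -16.6 with read-weighted levels. Counts moved with the number of cytosines and reads tested. Fisher's exact tests called 36940 lower and 1565 higher of 111924 cytosines with 20 reads, 30644 and 594 with 10 reads drawn, 77187 and 2081 at 50 points, and 974 and 0 with reads scaled by strand variance. Setting unlisted cytosines to 0 gave 7945 higher cytosines, 469 higher tiles and 49 higher promoter windows. Tiles numbered 21275 lower and 446 higher of 60058 with 5 reads, 1804 and 29 of 5831 with 20 reads, 1886 and 9 at 50 points, and 2955 and 32 of 8539 with at least 10 cytosines. Cytosines of all 4 libraries gave 98 higher tiles and 14 higher promoter windows. Promoter windows numbered 121 lower and 2 higher of 343 with 20 reads, 141 and 0 at 50 points, and 365 lower of 811 in the window from 250 bp before to 50 bp after the start. For 124 named tiles and windows, 860 of 946 values kept their sign and their side of the rule, 51 no longer passed and 20 newly passed. The other 15, at 9 items that had not passed, changed sign, with the largest shift at chr5:178808001 (2.42 to -20.01 points with 5 reads). The 50-point setting reuses the main differences, so no sign could change there, and it gave 35 of the 51. Leaving out cytosines over 100 reads changed none of the 124 calls. The 860 is therefore not a rate of stability. The gain at LINC02723 was 4.21 points with 5 reads and 11.1 points with merged strands, against 39.7 points. PCDHA6 was lower by the rule in the shorter window, at -44.3 points, while PCDHB4 and PCDHGC3 no longer passed there, at -22.6 and -22.0 points. The cause of these shifts was not tested. No paired analysis was possible because each group held 1 library. Depth limits single cytosines: at 17 reads in the median, one read moves a level by several points.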
